A study of Homo sapiens with 18 samples.

Results

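The genes described here are 30 genes of cholesterol and fatty acid synthesis, chosen by symbol for their known roles, with earlier results of these data known. They comprise 7 genes of the mevalonate pathway, 11 that turn farnesyl units into squalene and cholesterol, 5 regulators and sterol carriers, and 7 of fatty acid synthesis and desaturation. They are 30 of 56609 gene symbols in the count table, 42248 of which had at least 1 count and 31872 of which were tested, the 30 members among them. Transcripts were measured in HG3, MEC2 and PCL12, Epstein-Barr virus (EBV)-positive B-cell lines that are used as models of chronic lymphocytic leukemia (CLL), a leukemia of mature B cells. Each line was stimulated for 4 h with 2.5 µg/ml CpG-ODN2006, a synthetic DNA that is recognised by Toll-like receptor 9 (TLR9), or was left unstimulated, with 3 replicates in each of the 6 groups. All groups, controls included, were EBV-positive and were cultured in RPMI with 10% fetal bovine serum, which itself carries lipids. Each replicate series held 1 stimulated and 1 unstimulated sample of a line, and these are called a pair below. Nothing in the sources says that the replicates were separate cultures, so a p-value measures the spread between these samples, which may be technical.

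Cells build cholesterol from acetyl-CoA through mevalonate, farnesyl pyrophosphate, squalene and lanosterol, and they build fatty acids from the same acetyl-CoA through malonyl-CoA. Most of these enzymes are controlled by the sterol regulatory element-binding proteins encoded by SREBF1 and SREBF2: when membrane sterol falls, the escort protein SCAP carries them from the endoplasmic reticulum to the Golgi for cleavage, and INSIG1 holds them back when sterol is ample. INSIG1 is itself a target of these factors, and activated lymphocytes are known to need new membrane lipid before they divide.

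Total counts were 20382943 to 67308932 per library. Every member had at least 195 counts in every library, and the 30 members together took 0.266% to 0.634% of the counts. Levels are given in CPM, read counts scaled to a common library size with a correction for composition by the TMM method, and 3 counts corresponded to 0.0429 to 0.155 CPM. These CPM are not corrected for transcript length, so they are compared between libraries and not between genes. Among the 6 B-cell markers fixed for the check, summed levels were 2115 to 3673 CPM, against at most 2.40 CPM for T-cell, 1.91 CPM for monocyte and 4.13 CPM for NK-cell markers. 2 libraries stood apart by the share of counts on mitochondrial genes, namely HG3 unstimulated replicate 2 with 20.2% and MEC2 replicate 2 after CpG with 19.7%, where the other libraries had 2.82% to 9.28%. PCL12 replicates 2 and 3 held genes typical of MEC2 at 28.6% to 31.1% of their MEC2 level, against at most 1.49% in PCL12 replicate 1, by which those genes were picked. Values without these libraries stand beside the calls and the named differences that they moved most.

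The promoters of 4 regulators are shown because their transcripts carry the results that follow: INSIG1 and STARD4 for the CpG comparison and SREBF1 for the comparison of lines. SREBF2 is shown because it alone among the 26 members with a promoter entry held the classical sterol element in the window searched. Each run is the 250 bases before the RefSeq start site (build GRCh38), 5′ to 3′ on the strand of the gene. Capitals mark the sterol regulatory element TCACNCCAC and the NF-Y box CCAAT, on either strand.
INSIG1 (chr7:155297628-155297877, plus strand): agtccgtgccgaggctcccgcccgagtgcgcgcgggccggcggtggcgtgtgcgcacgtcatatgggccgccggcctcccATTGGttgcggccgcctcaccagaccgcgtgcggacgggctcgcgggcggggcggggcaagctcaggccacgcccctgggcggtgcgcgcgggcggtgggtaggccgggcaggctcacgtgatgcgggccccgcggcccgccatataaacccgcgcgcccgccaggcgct
STARD4 (chr5:111512536-111512785, minus strand): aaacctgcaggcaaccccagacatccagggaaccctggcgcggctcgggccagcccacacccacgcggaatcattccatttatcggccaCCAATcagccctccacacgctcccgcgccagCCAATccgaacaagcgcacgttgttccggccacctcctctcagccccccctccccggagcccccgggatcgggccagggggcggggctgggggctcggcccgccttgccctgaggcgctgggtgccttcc
SREBF1 (chr17:17836987-17837236, minus strand): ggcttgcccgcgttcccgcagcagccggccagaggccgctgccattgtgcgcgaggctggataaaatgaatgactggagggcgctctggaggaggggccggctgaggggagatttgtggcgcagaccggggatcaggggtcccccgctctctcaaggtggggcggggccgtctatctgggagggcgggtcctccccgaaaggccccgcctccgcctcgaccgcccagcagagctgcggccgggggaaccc
SREBF2 (chr22:41832855-41833104, plus strand): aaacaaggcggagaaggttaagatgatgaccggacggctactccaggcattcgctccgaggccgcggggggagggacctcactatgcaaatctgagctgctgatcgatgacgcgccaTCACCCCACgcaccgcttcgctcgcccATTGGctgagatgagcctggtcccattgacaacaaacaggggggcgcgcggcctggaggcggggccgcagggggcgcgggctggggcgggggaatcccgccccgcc
Over the window from 250 bases before to 50 bases after the start site, 26 of the 30 members had an entry. ACAT2, FDFT1, SQLE and FASN had none. TCACNCCAC was found in 1 of the 26, SREBF2, and in 1.13% of the 35116 promoters of the table. CCAAT, the box bound by NF-Y, was found in 17 of the 26 (65.4%) and in 34.6% of all promoters. GGGCGG, the GC box bound by Sp1, was found in 24 (92.3%) against 45.0% of all, and the E-box CACGTG in 4 (15.4%) against 7.26%. Both strands were searched, and none of the 4 motifs contains another. A match is a string of letters and not a measured binding site, and the window holds only the region next to the start.

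The first comparison asked whether 4 h of CpG moved these genes. INSIG1, the sterol-sensing brake on the pathway, was higher after CpG in 9 of 9 pairs, and STARD4, a carrier that moves cholesterol between membranes, in 7 of 9, a tally that HMGCS1, LSS and SREBF1 shared. With the 3 lines averaged, the log2 difference (CpG minus unstimulated) was above 0 for 12 of the 25 enzyme genes, with a median of -0.01. Over all 30 members it was above 0 for 17, with a median of 0.02, and over all genes tested for 54.2%, with a median of 0.03. Without the libraries of high mitochondrial share the median of the members was -0.02. No member passed an adjusted p of 0.05 in HG3, MEC2 or PCL12 or over the lines in edgeR's quasi-likelihood test on the 6 group means. Of all genes tested, 0.00314%, 0.00314%, 0% and 0.00941% passed there. At an unadjusted p of 0.05 the member counts were 0, 0, 0 and 1, where 3.73%, 2.46%, 2.09% and 4.04% of all genes passed. With the replicate block, which compares the libraries of a pair with each other, INSIG1 and STARD4 rose over the 3 lines (2 of 30 members, against 0.555% of all genes). No member passed in a single line with the block, where 0.135% of all genes passed in HG3, 0.333% in MEC2 and 0.0471% in PCL12. In the block fit edgeR took the spread of the members from an estimate shared across genes (191232 degrees of freedom for each member, against 14.2 to 26.1 on the group means), so that a member's own scatter between pairs hardly enters its p. Without both pairs that hold a library of high mitochondrial share, which lie in HG3 and MEC2, the block called INSIG1 in MEC2 (adjusted p = 5.79e-06). It then also called INSIG1 and STARD4 in PCL12 (adjusted p = 0.00763 and 5.43e-04), although the PCL12 libraries were the same and the differences stood at 0.44 and 0.56, against 0.45 and 0.57 with all pairs. In RNA from whole cultures, less transcript per cell and fewer cells that hold it cannot be told apart.

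**Figure D1:**
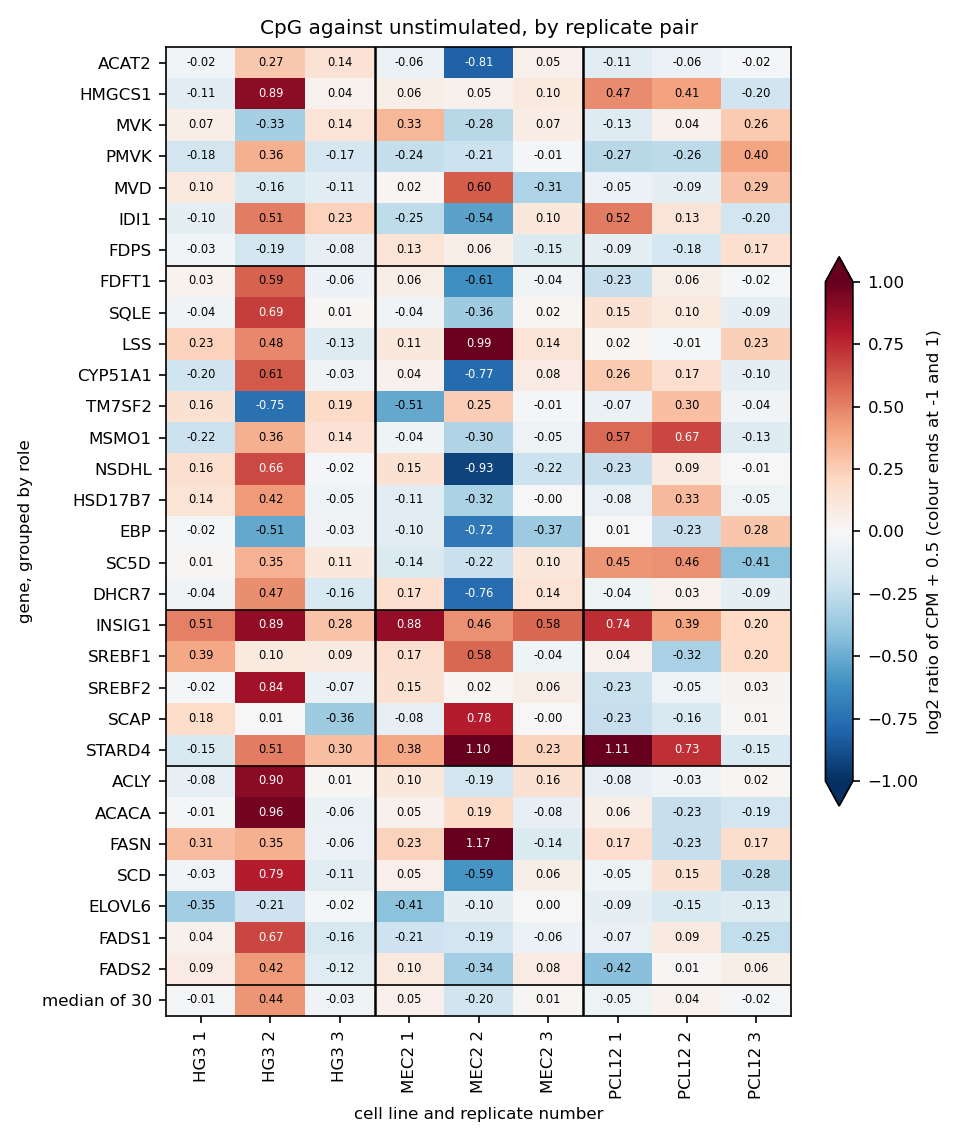
Log2 ratio of CPM + 0.5 after CpG to unstimulated for the 30 genes (rows, grouped by role) in the 9 replicate pairs (columns, by cell line), with the median of the 30 genes in the last row. Red is higher and blue lower after CpG. INSIG1 is above 0 in 9 of 9 pairs, and the columns HG3 2 and MEC2 2 hold the largest ratios of 13 and 12 genes.

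INSIG1 (chr7:155297776-155310235, GENCODE release 44) stood at 281, 200.3 and 660.5 CPM in the unstimulated HG3 libraries, replicates 1 to 3, and at 399, 371 and 803 CPM after CpG. In MEC2 it stood at 229, 206 and 82.7 CPM without and 420.3, 284 and 124 CPM with CpG. In PCL12 the values were 189, 309 and 105 CPM without and 315, 407 and 121 CPM with CpG. In each pair the stimulated library was the higher of the 2, while the stimulated and unstimulated groups overlapped in every line because the replicates of a line lay far apart. The HG3 pairs had log2 ratios of 0.51, 0.89 and 0.28, the MEC2 pairs of 0.88, 0.46 and 0.58, and the PCL12 pairs of 0.74, 0.39 and 0.20. Over the 9 pairs the mean was 0.55 ± 0.25 (SD). INSIG1 was the only member above 0 in 9 of 9 pairs, as were 0.784% of the 9306 genes averaging 10 CPM or more, called abundant genes below. Of the abundant genes, 1.46% passed over the lines with the block. On the group means the averaged difference was 0.54 ± 0.35 (log2, SE; adjusted p = 1.00). With the replicate block it was 0.55 ± 0.12 (adjusted p = 0.00233, 95% interval 0.31 to 0.78).

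The INSIG1 call of the block was kept by limma-voom with the same block (adjusted p = 0.0148), and without both pairs that hold a library of high mitochondrial share (log2 difference 0.53, adjusted p = 6.08e-11). It was kept without any single pair except pair 1 of PCL12 (adjusted p = 0.114). With PCL12 represented by replicate 1 alone, the difference was 0.66 and the adjusted p was 0.101. Taken line by line with the block, the INSIG1 difference was 0.56 ± 0.21 for HG3 (unadjusted p = 0.00704 in edgeR), 0.64 ± 0.21 for MEC2 (0.00210) and 0.45 ± 0.21 for PCL12 (0.0318). Without both pairs of high mitochondrial share it was 0.40 for HG3 and 0.76 for MEC2.

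STARD4 (chr5:111496033-111512590) was measured at 177, 127 and 307 CPM in unstimulated and 159, 181 and 379.8 CPM in stimulated HG3. MEC2 held 117, 86.8 and 63.9 CPM without and 153, 187 and 74.8 CPM with CpG. PCL12 held 90.5, 149 and 120.2 CPM without and 196, 248 and 108 CPM with CpG. The stimulated library was the higher one in all 3 MEC2 pairs and in 2 pairs of each other line, and the groups overlapped in each line. Over the 9 pairs the log2 ratio was 0.45 ± 0.47 (mean and SD). The averaged log2 difference was 0.49 ± 0.23 on the group means (unadjusted p = 0.0439, adjusted p = 1.00) and 0.45 ± 0.12 with the block (adjusted p = 0.0299). In edgeR with the block this call was lost without pair 3 of HG3, pair 1 or 2 of MEC2, or pair 1 or 2 of PCL12 (adjusted p = 0.108, 0.0718, 0.0687, 0.837 and 0.292), and limma-voom with the block gave an adjusted p of 0.428. The call was kept without both pairs of high mitochondrial share (log2 difference 0.32, adjusted p = 0.00332 in edgeR). It was lost with PCL12 replicate 1 alone, 1 pair for that line. There the STARD4 difference in PCL12 was 1.11 with the block, against 0.57 with all pairs. On the group means, leaving out both libraries of high mitochondrial share gave an averaged difference of 0.33. The antisense transcript STARD4-AS1 overlaps STARD4 and was counted at 0.163 to 2.79 CPM.

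**Figure D2:**
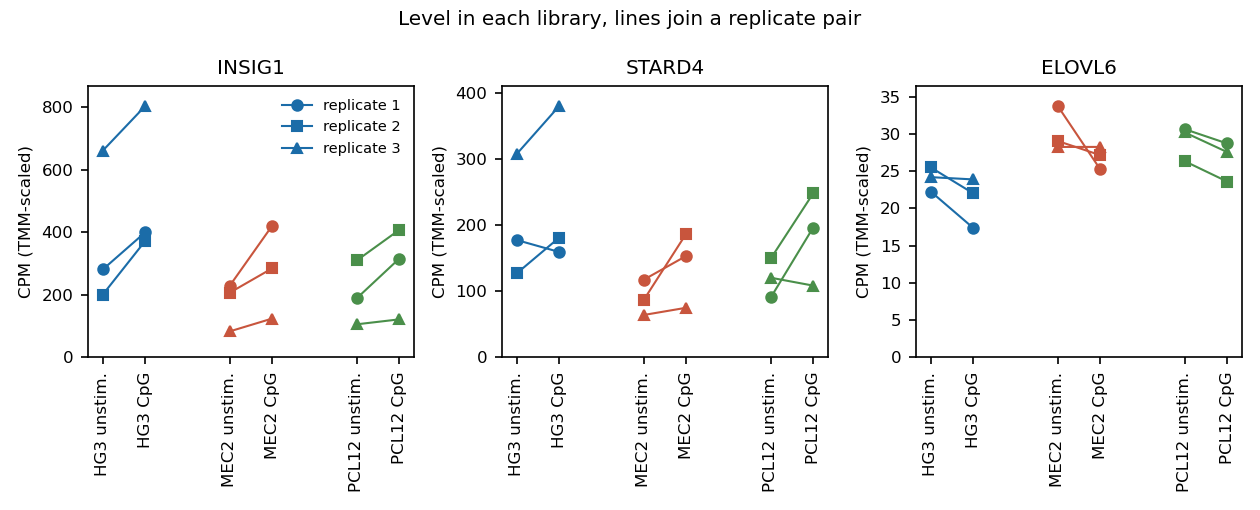
Level of INSIG1, STARD4 and ELOVL6 in each library (CPM, linear axis from 0), with lines joining the unstimulated and the CpG-stimulated library of a replicate pair and symbols for the replicate number. INSIG1 rises along 9 of 9 lines, STARD4 along 7 of 9 and ELOVL6 along 1 of 9.

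SREBF1, SREBF2 and SCAP did not pass in either fit. SREBF2, which codes for the factor that mainly drives the cholesterol genes, had an averaged log2 difference of 0.05 ± 0.20, and SCAP, the escort protein, of 0.02 ± 0.13. SREBF1, which codes for the factor that mainly drives fatty acid synthesis, was 0.14 ± 0.17. The 5 regulators had a median of 0.14 over the lines, and all 5 values were above 0, but in PCL12 alone the median was -0.03 with 2 of 5 above 0. Without both libraries of high mitochondrial share the median over the lines was 0.07, with 3 of 5 above 0. In the 9 pairs the median of these 5 genes was above 0 in 8.

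The 7 mevalonate genes build the isoprenoid units, from ACAT2 and HMGCS1 at the entry to FDPS, which makes farnesyl pyrophosphate. Their averaged log2 differences ran from -0.06 for ACAT2 to 0.17 for HMGCS1, 4 of 7 were above 0, and the lowest unadjusted p was 0.632 in edgeR. Their median was 0.02, and without both libraries of high mitochondrial share it was -0.01, with 1 of 7 above 0. HMGCS1, whose enzyme joins acetoacetyl-CoA and acetyl-CoA, had log2 ratios of -0.11, 0.89 and 0.04 in HG3, of 0.06, 0.05 and 0.10 in the MEC2 pairs and of 0.47, 0.41 and -0.20 in those of PCL12. MVK, PMVK and MVD, which phosphorylate and decarboxylate mevalonate, and the isomerase gene IDI1 each lay above 0 in some pairs and below 0 in others.

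The 11 genes from squalene synthase to cholesterol had a median averaged difference of -0.01, from -0.17 for EBP to 0.22 for LSS, and 5 of 11 were above 0. LSS, which closes squalene epoxide into lanosterol, was higher in 7 of 9 pairs. Its difference in MEC2 was 0.51 ± 0.48 on the group means (unadjusted p = 0.299) and 0.41 ± 0.21 with the block (unadjusted p = 0.0472, adjusted p = 1.00). The 3 MEC2 pairs had log2 ratios of 0.11, 0.99 and 0.14, the second being the pair of high mitochondrial share. Without the libraries of high mitochondrial share the MEC2 difference of LSS was 0.03 on the group means, and without their pairs 0.15 with the block (unadjusted p = 0.277). In MEC2, 1 of the 11 was above 0 on the group means, where 47.2% of all genes were, while 5, 2 and 5 of the 11 were above 0 in the 3 pairs, the second again being that of high mitochondrial share. With the block, INSIG1, STARD4 and LSS were the 3 members past an unadjusted p of 0.05 in MEC2 (3.41% of all genes), INSIG1 and STARD4 in PCL12 (1.69%), and INSIG1 in HG3 (3.59%). Of the abundant genes, which include the members, 7.55%, 3.03% and 5.99% did so, and the members' counts of 3, 2 and 1 in 30 were near those shares.

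EBP, the sterol isomerase of the late pathway, had 68.1, 58.3 and 91.8 CPM in unstimulated and 63.4, 35.3 and 71.1 CPM in stimulated MEC2, where the stimulated library was the lower one in each pair. Its log2 difference in MEC2 was -0.36 ± 0.25 (unadjusted p = 0.165), -0.11 without the libraries of high mitochondrial share and -0.56 without stimulated replicate 3. In HG3 the EBP values were 38.7, 45.1 and 36.0 CPM without and 38.3, 31.6 and 35.2 CPM with CpG, a difference of -0.19 ± 0.25. In PCL12 they were 68.6, 62.9 and 60.1 and 68.9, 53.5 and 73.0 CPM, a difference of 0.03 ± 0.25, with overlapping groups.

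NSDHL, which removes the methyl groups at carbon 4 together with MSMO1, stood at 26.0, 19.8 and 33.3 CPM in unstimulated HG3 and 29.1, 31.5 and 32.8 CPM with CpG (0.24 ± 0.27, unadjusted p = 0.377 in edgeR). That difference was 0.10 without the libraries of high mitochondrial share and 0.44 without unstimulated replicate 3. In MEC2 NSDHL was 39.7, 38.7 and 41.5 CPM without and 44.02, 20.1 and 35.6 CPM with CpG. In PCL12 it was 39.5, 39.9 and 32.1 CPM without and 33.7, 42.5 and 31.9 CPM with CpG. The lowest 2 of these 18 libraries were the 2 of high mitochondrial share, 1 unstimulated and 1 stimulated.

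MSMO1, the methylsterol oxidase, was the gene of smallest p among the enzymes in PCL12, with 52.0, 68.0 and 48.6 CPM without and 77.2, 109 and 44.3 CPM with CpG (0.45 ± 0.37, unadjusted p = 0.232 in edgeR). Replicates 1 and 2 were higher and replicate 3 lower after CpG, and the difference was 0.11 without stimulated replicate 2 and 0.73 without stimulated replicate 3. In HG3 the MSMO1 values were 65.6, 34.6 and 96.1 CPM without and 56.3, 44.4 and 106 CPM with CpG. In MEC2 they were 84.3, 68.8 and 49.8 and 81.8, 55.8 and 48.0 CPM, with little distance between the libraries of pairs 1 and 3. FDFT1, which codes for squalene synthase and commits farnesyl units to sterol, had an averaged difference of -0.03 ± 0.14. HSD17B7, a ketoreductase gene, is uncertain because its pseudogene HSD17B7P2 was counted at up to 9.68 CPM, and TM7SF2, a sterol reductase gene, overlaps VPS51 on the same strand, which was counted at 86.2 to 160.5 CPM.

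The 7 fatty acid genes had a median averaged difference of -0.02, from -0.16 for ELOVL6 to 0.23 for FASN, with 3 of 7 above 0. Without the libraries of high mitochondrial share the averaged difference of FASN was 0.02. FASN, the synthase that assembles palmitate, stood at 898, 818 and 823 CPM in unstimulated and 1052, 1841 and 747 CPM in stimulated MEC2 (0.52 ± 0.31, unadjusted p = 0.109 in edgeR). The high value was that of stimulated MEC2 replicate 2, the library with 19.7% of counts on mitochondrial genes. Without that library the MEC2 difference of FASN was 0.09. The FASN values were 635, 429.8 and 867 CPM without and 788, 549 and 833 CPM with CpG in HG3, and 485, 952 and 672 CPM without and 545, 811 and 758 CPM with CpG in PCL12.

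ACLY makes cytosolic acetyl-CoA from citrate. It stood at 312, 134 and 268 CPM in unstimulated and 295, 252 and 269.5 CPM in stimulated HG3 (0.19 ± 0.25), where unstimulated replicate 2, of high mitochondrial share, was the low value. Without that library the difference in HG3 was -0.07, of the opposite sign. MEC2 held 229, 215 and 235 CPM without and 246, 189 and 261 CPM with CpG, and PCL12 315, 294 and 294 and 299, 288 and 298 CPM, close to each other within a line.

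ELOVL6, which lengthens palmitate to stearate, went the other way from INSIG1: it was above 0 in 1 of 9 pairs, as 0 or 1 of 9 was found for 3.89% of abundant genes. Its values were 22.2, 25.5 and 24.2 CPM without and 17.4, 22.0 and 23.9 CPM with CpG in HG3. In MEC2 they were 33.7, 29.0 and 28.2 and 25.2, 27.1 and 28.2 CPM, and in PCL12 30.6, 26.3 and 30.2 and 28.7, 23.6 and 27.5 CPM. The stimulated values were lower or level, and the groups overlapped in HG3 and PCL12 and met in MEC2. The averaged log2 difference was -0.16 ± 0.13 (adjusted p = 1.00, 95% interval -0.44 to 0.11). SCD, ACACA, FADS1 and FADS2, which desaturate fatty acids or make malonyl-CoA, had ratios on both sides of 0.

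A p that misses the threshold does not show that CpG left these genes alone, so the intervals are given too. On the group means, the 95% interval of the averaged difference lay within 1 log2 unit of 0 for 29 of 30 members, INSIG1 being the other, and within 0.5 for 23. With the replicate block the counts were 30 and 28. In single lines the group means placed 25 members in HG3, 24 in MEC2 and 24 in PCL12 within 1 log2 unit, and 0, 1 and 0 within 0.5. The difference between lines in the CpG effect was tested directly: no member passed for MEC2 minus HG3, PCL12 minus HG3 or MEC2 minus PCL12, at an adjusted or an unadjusted p of 0.05 in edgeR. Of all genes, 0%, 0.00314% and 0% passed after adjustment and 4.1%, 4.16% and 3.23% without it.

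The 9 pairs did not give the same picture of the members as a set. The median log2 ratio over the 30 members was -0.01, 0.44 and -0.03 in the 3 HG3 pairs, 0.05, -0.20 and 0.01 in MEC2 and -0.05, 0.04 and -0.02 in PCL12. Averaged over pairs, it was 0.13 ± 0.27 (SD, n = 3) in HG3, -0.05 ± 0.14 in MEC2 and -0.01 ± 0.04 in PCL12. In HG3 pair 2 the ratio was above 0 for 24 of 30 members, and for 63.7% of abundant genes. In MEC2 pair 2 it was below 0 for 60.0% of the members and 50.1% of those genes. These are the pairs that hold a library of high mitochondrial share, unstimulated in HG3 and stimulated in MEC2, and 25 of 30 members (78.0% of abundant genes) had their largest absolute ratio in 1 of them. In both, the library of high mitochondrial share was the lower one for 15 of 30 members and 33.0% of abundant genes. It was the higher one for 3 members and 19.1% of those genes. The part of RNA quality in this was not tested. With those 2 libraries left out, the median difference over the members was -0.07 in HG3, where it had been 0.12, and 0.00 in MEC2, where it had been -0.09.

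The replicate series of a line lay apart for many members. Both libraries of a replicate were the lowest of the line for 16 of 30 members in HG3 replicate 2, 13 in MEC2 replicate 3 and 16 in PCL12 replicate 3. Of the abundant genes, 21.6%, 23.4% and 13.6% did so. Both libraries were the highest for 17 members in HG3 replicate 3 and 11 in PCL12 replicate 2, against 29.2% and 9.64% of those genes. The range over the replicates exceeded the size of the mean CpG ratio for 29 (HG3), 28 (MEC2) and 29 (PCL12) of the 30 members, near the shares found among abundant genes (95.3%, 88.3% and 91.7%). The median range was 0.78, 0.61 and 0.60 log2 units for the members and 0.55, 0.47 and 0.41 for the genes.

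HMGCS1 shows this spread. It stood at 295, 107 and 424 CPM in unstimulated HG3 and 274, 199 and 436 CPM with CpG, at 411, 382 and 136 and 429, 395 and 146 CPM in MEC2, and at 169.9, 323 and 148 and 236, 428 and 129 CPM in PCL12, a gene named after its values were seen. The highest pair mean of a line was 2.94-fold the lowest in HG3, 2.98-fold in MEC2 and 2.68-fold in PCL12. For INSIG1 these folds were 2.67, 3.06 and 3.13, and for LSS 2.36, 2.40 and 2.26. SCAP stayed within 1.15, 1.10 and 1.15. A fold of at least 2 was seen for 11 members in HG3, 6 in MEC2 and 4 in PCL12, against 16.1%, 10.5% and 6.81% of the abundant genes. Whether same-numbered series of different lines had a day or batch in common, and the culture conditions behind each series, were not given in the sources used here. PCL12 replicate 2 was the highest of the line for 11 members and the lowest for 1, and replicate 3 the highest for 2 and the lowest for 16. Both replicates held genes typical of MEC2, as given above. They held genes typical of PCL12 replicate 1 at 67.7% to 80.2% of their level in that replicate, by which those genes were picked. The part of this in the spread was not tested.

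**Figure D3:**
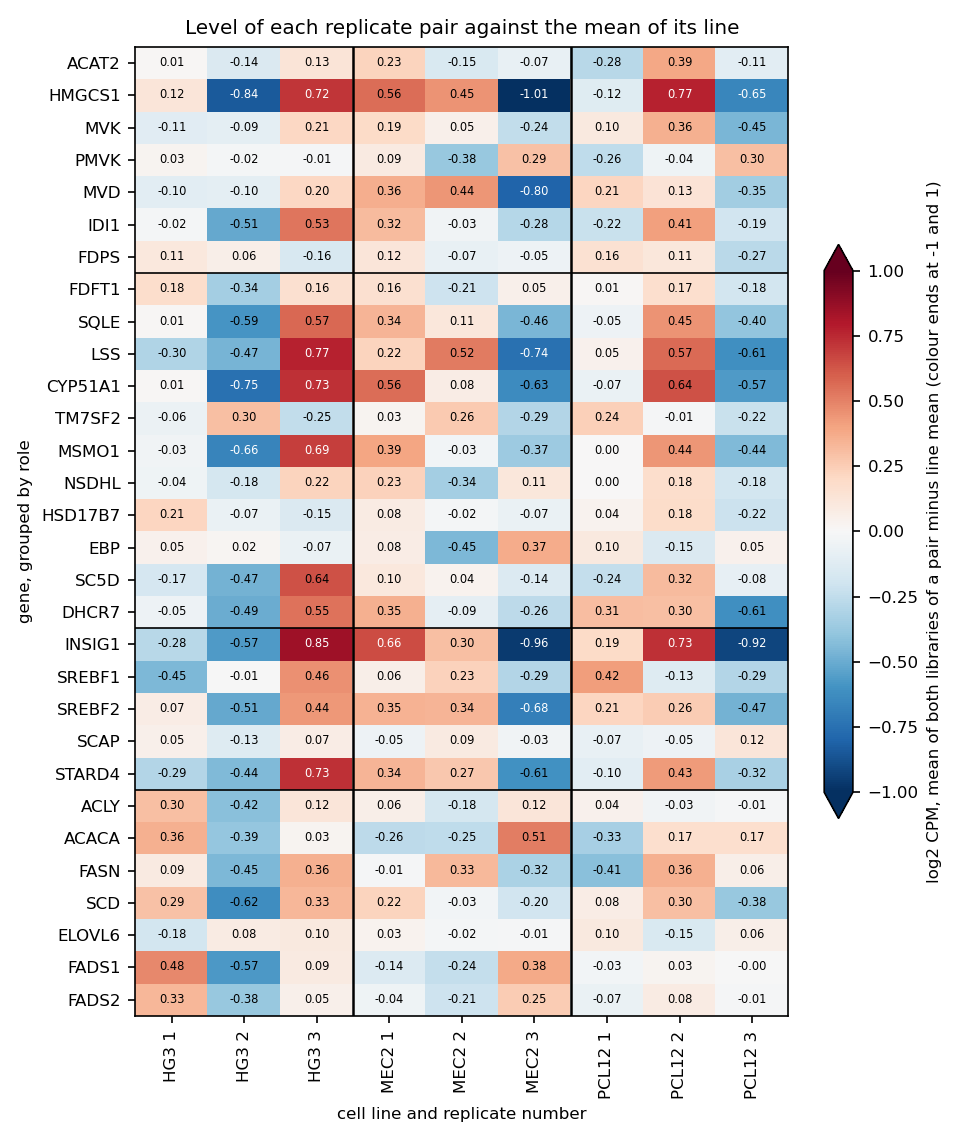
Mean log2 CPM of the 2 libraries of each replicate pair minus the mean of its line, for the 30 genes (rows, grouped by role) and 9 pairs (columns). Both libraries were the lowest of their line for 16 genes in HG3 2, 13 in MEC2 3 and 16 in PCL12 3 (blue), and the pair means of HMGCS1 span at least 2.68-fold in each line.

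The second comparison asked how the lines differ without stimulation. SREBF1 was lower in MEC2 than in either other line, and EBP and FDFT1 were higher in MEC2 than in HG3. In edgeR's quasi-likelihood test, 3 of 30 members passed for MEC2 minus HG3 (2 higher, 1 lower), where 9.78% of all genes passed. For PCL12 minus HG3, 0 of 30 passed, against 9.44% of all genes, and for MEC2 minus PCL12 1 passed, against 2.05%. At an unadjusted p under 0.05 there were 7, 4 and 3 members, against 21.7%, 21.8% and 11% of all genes. The members' shares of 3 and 1 in 30 were near the share of all genes, and 0 in 30 was below it. Of the abundant genes, 16.2%, 14.6% and 3.79% passed.

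SREBF1 (chr17:17810399-17837002) stood at 57.0, 85.7 and 119 CPM in HG3, 41.9, 40.9 and 35.2 CPM in MEC2 and 109, 84.9 and 63.2 CPM in PCL12, all unstimulated. The 3 MEC2 libraries lay below all 6 others, and HG3 and PCL12 overlapped. The log2 difference was -1.15 ± 0.30 (SE) for MEC2 minus HG3 (adjusted p = 0.0110) and -1.13 ± 0.30 for MEC2 minus PCL12 (adjusted p = 0.0417) in edgeR, and -0.02 ± 0.29 for PCL12 minus HG3. Against HG3 the call was lost without HG3 replicate 3 (-0.86, adjusted p = 0.0844) or MEC2 replicate 3 (adjusted p = 0.0529). Against PCL12 it was lost without any 1 library except PCL12 replicate 3 (adjusted p = 0.0918 to 0.283), and in limma-voom (adjusted p = 0.0777). With PCL12 replicate 1 alone, 1 library against 3, it was -1.47. After CpG the SREBF1 values were 74.8, 92.0 and 126 CPM in HG3, 47.1, 61.3 and 34.2 CPM in MEC2 and 112, 67.8 and 72.6 CPM in PCL12. The stimulated MEC2 values were again the lowest 3. SREBF1 overlaps RAI1 on the other strand.

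EBP (chrX:48521799-48528716) was the line difference of the late pathway, at the unstimulated values given above for the CpG comparison. The 3 HG3 libraries lay below all 6 others. The log2 difference was 0.87 ± 0.26 for MEC2 minus HG3 (adjusted p = 0.0287) and 0.68 ± 0.26 for PCL12 minus HG3 (adjusted p = 0.103). The call for MEC2 was lost without HG3 replicate 1 (adjusted p = 0.0776), HG3 replicate 3 (0.0956), MEC2 replicate 1 (0.0561) or MEC2 replicate 3 (0.184), and with only the compared groups in the fit (0.0813).

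FDFT1 was measured at 169, 97.3 and 173 CPM in HG3, 256, 251 and 246 CPM in MEC2 and 252, 252 and 204 CPM in PCL12. The HG3 libraries were the lowest 3, and HG3 replicate 2, of high mitochondrial share, was the lowest of all. The log2 difference was 0.78 ± 0.24 for MEC2 minus HG3 (adjusted p = 0.0415) and 0.69 ± 0.24 for PCL12 minus HG3 (adjusted p = 0.0793). Without HG3 replicate 2 the first was 0.57 (adjusted p = 0.139 in edgeR) and the second 0.49 (adjusted p = 0.220). The call for MEC2 minus HG3 was also lost without MEC2 replicate 1, 2 or 3 (adjusted p = 0.0991, 0.0923 and 0.0861), with no filter on counts (0.0589) and with only the compared groups in the fit (0.143). With both libraries of high mitochondrial share left out together, the adjusted p for MEC2 minus HG3 was 0.0414. After CpG, FDFT1 stood at 173, 147 and 166 CPM in HG3, 266, 164 and 239 CPM in MEC2 and 214, 264 and 202 CPM in PCL12, and the stimulated groups of HG3 and MEC2 overlapped.

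**Figure D4:**
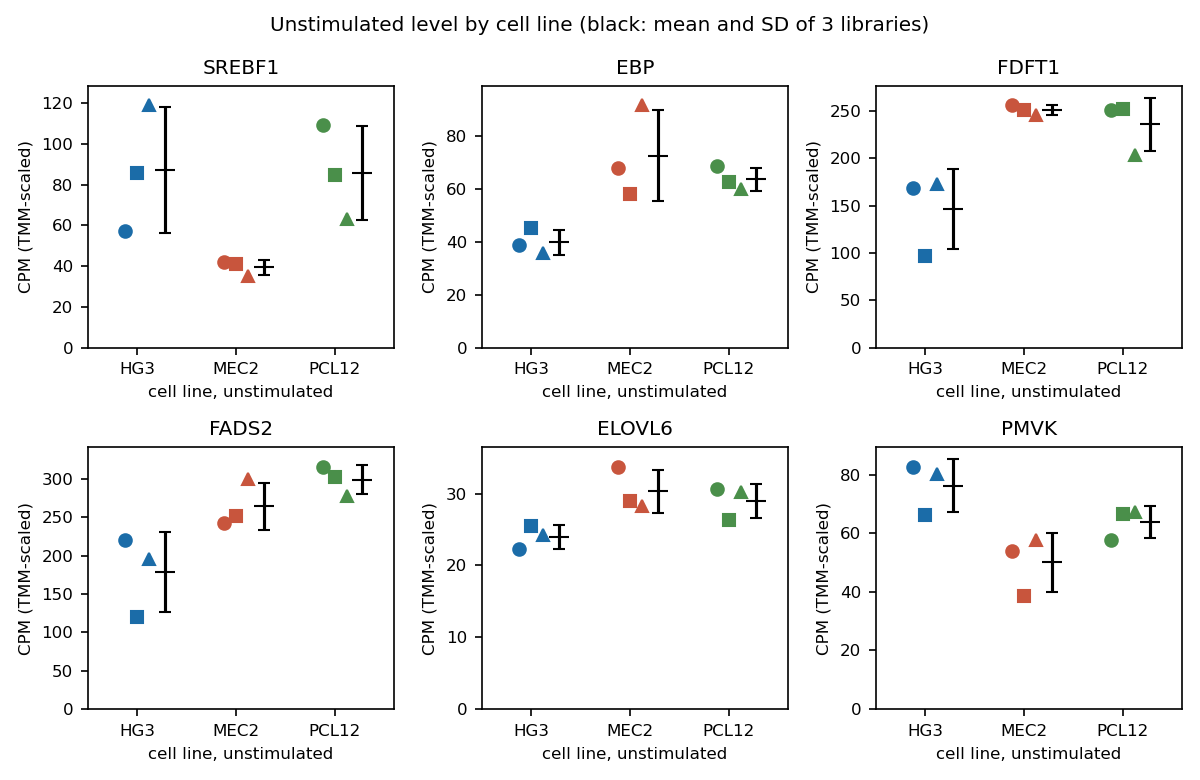
Unstimulated level (CPM, linear axis from 0) of SREBF1, EBP, FDFT1, FADS2, ELOVL6 and PMVK in the 3 libraries of each line, with the mean and SD in black. MEC2 lies below both other lines for SREBF1, for PMVK its highest library is level with the lowest of PCL12, and HG3 lies below both for EBP, FDFT1, FADS2 and ELOVL6.

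Beyond these 3 genes, the unstimulated groups of a line stood clear of both others for ELOVL6 and FADS2, lowest in HG3. PMVK was lowest in MEC2, where its highest library was level with the lowest of PCL12. In all, 4 members were lowest in HG3 without overlap, against 9.90% of the abundant genes, and 2 in MEC2 (SREBF1 and PMVK), against 5.31%. No member was clear above both other lines, where 8.98% (HG3), 5.51% (MEC2) and 4.61% (PCL12) of the abundant genes were. None was clear below them in PCL12, where 4.00% of those genes were. FADS2, the delta-6 desaturase, had unstimulated values of 221, 120.1 and 196 CPM in HG3, 242, 252 and 299.7 CPM in MEC2 and 316, 303 and 278 CPM in PCL12, and its difference for PCL12 minus HG3 was 0.74 ± 0.25 (adjusted p = 0.0631). Without HG3 replicate 2, of high mitochondrial share, that difference was 0.55 (adjusted p = 0.183 in edgeR). FADS2 overlaps FADS1 on the other strand and FEN1 on its own. PMVK stood at 82.6, 66.1 and 80.1 CPM in HG3, 54.1, 38.5 and 57.6 CPM in MEC2 and 57.7, 66.6 and 67.4 CPM in PCL12, with a difference of -0.61 ± 0.26 for MEC2 minus HG3 (adjusted p = 0.159).

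By role, the 11 squalene-to-cholesterol genes had a median of 0.45 for MEC2 minus HG3, with 10 of 11 above 0 (45.6% of all and 51.6% of abundant genes), and of 0.34 for PCL12 minus HG3, with 7 above 0 (47.8% and 51.0%). Without the libraries of high mitochondrial share these were 0.25 with 9 above 0 and 0.24 with 6. The 7 mevalonate genes had medians of 0.08 and 0.18, and the 7 fatty acid genes of 0.34 and 0.34, which became 0.07 and -0.06, and 0.15 and 0.14, without those libraries. The 5 regulators had a median of -1.14 for MEC2 minus HG3, but of them SREBF1 alone passed. INSIG1 was -1.14 ± 0.62 and STARD4 -1.19 ± 0.40 (adjusted p = 0.295 and 0.0694), while SCAP was -0.03 ± 0.22 and SREBF2 0.17 ± 0.34. Over the 30 members the medians were 0.17 for MEC2 minus HG3, 0.20 for PCL12 minus HG3 and -0.02 for MEC2 minus PCL12, where all genes tested had 0.00. With both libraries of high mitochondrial share left out, the first 2 were 0.07 and 0.00.

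3 further lists of the same metabolism were followed: 17 genes of sterol transport and oxysterol response, 12 of prenylation, dolichol and coenzyme Q, and 19 further fatty acid genes, all tested. None passed in a CpG comparison in edgeR on the group means or with the block. For MEC2 minus HG3, 2 sterol transport genes were higher and 1 lower, 1 prenylation gene was higher, and 2 fatty acid genes were higher and 2 lower. For PCL12 minus HG3, 2 sterol transport genes were higher and 1 fatty acid gene lower, and for MEC2 minus PCL12 1 sterol transport gene was lower. The shares of all genes called in these contrasts were the 9.78%, 9.44% and 2.05% given above for both directions together.

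ABCG1, a sterol exporter, stood at 1.06, 3.35 and 3.18 CPM in unstimulated HG3, 14.8, 14.8 and 12.3 CPM in MEC2 and 33.1, 12.3 and 13.5 CPM in PCL12. The log2 difference from HG3 was 2.48 ± 0.44 in MEC2 and 2.97 ± 0.45 in PCL12 (adjusted p = 2.79e-04 and 3.64e-05), with no overlap. With PCL12 replicate 1 alone, 1 library against 3, the PCL12 difference was 3.73. ABCA1, the exporter that loads HDL, stood at 0.176, 0.980 and 1.42, 1.55, 1.96 and 0.826 and 10.1, 8.06 and 8.75 CPM in the same order of lines, and was 3.39 ± 0.70 in PCL12 minus HG3 and -2.64 ± 0.67 in MEC2 minus PCL12 (adjusted p = 0.00150 and 0.0343). ME1, the cytosolic malic enzyme that supplies NADPH, was the reverse, at 13.3, 5.52 and 15.02 CPM in HG3, 0.115, 1.14 and 0.114 CPM in MEC2 and 0.417, 0.428 and 0.186 CPM in PCL12, with differences of -4.67 ± 0.81 and -5.04 ± 0.82 (adjusted p = 2.27e-04 and 1.10e-04). ABCA1 was 3.57 in PCL12 minus HG3 and -2.80 in MEC2 minus PCL12 with PCL12 replicate 1 alone, again 1 library against 3. ME1 was -4.74 in PCL12 minus HG3 in that setting. NR1H2, an oxysterol receptor gene, was -0.80 ± 0.24 in MEC2 minus HG3, LPCAT3, a phospholipid acyltransferase gene, 0.90 ± 0.29, and PGGT1B, a prenyltransferase subunit gene, 0.97 ± 0.27. SCD5, a second stearoyl-CoA desaturase gene, and ELOVL7, an elongase gene, passed at low levels: SCD5 at 0.242, 0.464 and 0.395 CPM in HG3 and 1.23, 3.06 and 3.85 CPM in MEC2, and ELOVL7 at 0.176, 0.258 and 0.158 and 3.50, 2.74 and 4.59 CPM. Without the libraries of high mitochondrial share the calls of LPCAT3 and ELOVL7 were lost (adjusted p = 0.0832 and 0.0717 in edgeR).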

How the data were processed

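Reads were single-end, and per the labels and the study's methods they were trimmed with Trimmomatic, aligned to hg38 with STAR and counted per gene with featureCounts. Versions, the annotation and the strand setting were not given in the sources used here. The labels name a Lexogen Quantseq kit and the methods a stranded reverse protocol, so whether counts come from transcript ends is unclear. The deposited table holds the authors' raw counts, whole numbers per gene symbol and library, with no normalization. Genes with at least 10 counts summed over 18 libraries were tested in edgeR 4.0.16 (R 4.3.3, TMM factors, robust quasi-likelihood fit, 1 mean per group, Benjamini-Hochberg over 31872 genes). An adjusted p under 0.05 was a call. Log2 ratios of a pair used CPM + 0.5. The members and lists were chosen with earlier results of these data known.

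The design pairs the libraries of a replicate series. Deviations from the group mean of same-numbered libraries correlated at 0.134 to 0.756 over 9306 genes, above 0.1 in each of the 9 pairs, so the replicate block is given beside each call it changed. In the block fit the spread of the members was shrunk to an estimate shared across genes. The block, DESeq2 1.42.0, limma-voom (limma 3.58.1), with and without block, RLE factors, library totals, 2 other count filters, fits of only the compared groups and leaving out libraries were the alternatives. Leaving out libraries of over 15% mitochondrial counts, and leaving out pairs in the block fit, were chosen after seeing the data. Members are described with values in every library if past an adjusted p of 0.05 in any of 10 contrasts or among the 3 smallest p of a CpG contrast. From each further list, at most 3 called genes per contrast are named, and FADS3 besides, because its call was lost. FADS2, PMVK, HMGCS1 and LSS were chosen after their values were seen. The scripts were tested on simulated data. Gene positions are from GENCODE release 44 and promoters from RefSeq (GRCh38). Of the members, 7 overlap another gene of the count table on the same strand and 11 one on the other.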

Additional observations from a re-analysis of the deposited data

Results flagged for a closer look

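3 values stood apart from the rest of the 9 pairs, their gap to the nearest other pair being more than the 95% critical value of Dixon's test (0.493 of the range for 9 values). Chance marks about 1 in 20 groups so tested, and 10 were tested. The median log2 ratio over the 30 members was 0.44 in pair 2 of HG3, above the other 8 pairs. ACLY had a log2 ratio of 0.90 in the same pair. FASN had a log2 ratio of 1.17 in pair 2 of MEC2. Both pairs hold a library with over 15% of counts on mitochondrial genes, unstimulated in HG3 and CpG-stimulated in MEC2, and the part of RNA quality in these values was not tested.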

How the results depend on the processing

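Of 841 recomputed values, 755 kept their direction and their side of the threshold or, for medians and counts of genes, stayed within the replicate spread or 1.5 times the count. For medians that spread could exceed the median itself, so a change of sign could count as kept. The median CpG difference in HG3, 0.12 with a spread of 0.27, counted as kept at -0.07. The replicate block took the count of members called over the 3 lines from 0 to 2 in edgeR and to 1 in limma-voom, and changed no other count. Without both pairs of high mitochondrial share the block called 1 member in MEC2 (INSIG1), 2 in PCL12 (INSIG1 and STARD4) and 2 over the lines. Without 1 pair it called 2 or 1 over the lines, except 0 without pair 1 of PCL12, and it called 0 with PCL12 replicate 1 alone.

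For MEC2 minus HG3, 3 members were called, 5 with no filter (EBP, INSIG1, LSS, SREBF1 and STARD4, without FDFT1) and 0 to 2 without 1 library. For PCL12 minus HG3, 0 were called, 2 in DESeq2 and in limma-voom, 3 with library totals, 1 with no filter, 1 without both libraries of high mitochondrial share and 0 to 1 without 1 library. For MEC2 minus PCL12, 1 was called, 0 in limma-voom and 0 to 1 without 1 library. The shares of all genes called in these alternative fits, those of the preceding paragraph included, are not given here. The counts therefore tell how the calls moved and are not a result about the members. The median CpG difference of the members in PCL12 was 0.00, -0.0522 with replicate 1 alone in either fit, and -0.10 to 0.11 without 1 library. ACLY in HG3 turned from 0.19 to -0.0676 without unstimulated replicate 2 or both libraries of high mitochondrial share and to -0.0362 in the block without those pairs, and ranged up to 0.453 without 1 library. The cause was not tested. With 3 libraries a group, single-line 95% intervals reached a median of 0.62 log2 units to each side on the group means and 0.40 to 0.41 with the block, whose half-widths rest on a spread shared across genes.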
